A study of Mus musculus with 6 samples.

Results

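The glucuronosyltransferase and sulfotransferase genes of mouse liver were described from polyadenylated RNA. Livers came from mice that had or had not been exposed to DEHP, short for di(2-ethylhexyl) phthalate, which softens plastics. Members were the protein-coding rows of the deposited count table whose symbol starts with Ugt or Sult followed by a digit. There were 34 such genes among 41096 annotated rows, 16 Ugt genes in 5 subfamilies and 18 Sult genes in 6. There were 3 libraries from DEHP livers and 3 from control livers. The labels give both groups only as liver of mice with or without the exposure, and state no dose, duration, vehicle, strain, age or sex, nor whether each library came from its own animal. The table heads the exposed libraries' columns High with a number, without saying what High stands for, and they were matched to the exposed samples by exposure and number. The p-values therefore measure the spread between these libraries, which may be technical.

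Both enzyme families make lipophilic molecules more water-soluble so that they can leave in bile or urine. UDP-glucuronosyltransferases sit in the membrane of the endoplasmic reticulum and attach a sugar, mostly glucuronic acid taken from UDP-glucuronic acid. Cytosolic sulfotransferases attach a sulfonate group taken from the donor PAPS, 3′-phosphoadenosine 5′-phosphosulfate. Between them they act in liver on bile acids, bilirubin, steroid and thyroid hormones, drugs and other foreign chemicals, and the exporters of the ABC family then move the conjugates out of the cell.

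Total counts per library ran from 10410098 to 14229803. Of 10 hepatocyte markers 8 had a row, and they summed to 143030, 148578 and 115579 CPM (counts scaled to the TMM-adjusted library total) in DEHP livers, against 133354, 120792 and 166114 CPM in control livers, with 3 higher and 1 lower at an unadjusted p under 0.05. The T cell, B cell, neutrophil, pancreatic acinar and kidney tubule lists each summed to at most 9.09 CPM in any library. The intestinal list summed to 133, 103 and 115 CPM in DEHP livers, against 112, 95.8 and 139.7 CPM in control livers. One feature set control replicates 1 and 2 apart from the other libraries. Irf7, an interferon-induced regulator, had 46.9, 45.1 and 64.9 CPM in DEHP livers, against 1073, 820.4 and 32.4 CPM in control livers. The 10 Kupffer cell and macrophage markers followed the same division, with sums of 249, 365 and 297 CPM in DEHP livers, against 795, 715 and 232 CPM in control livers. Of these markers 0 were higher and 4 lower in DEHP livers (unadjusted p under 0.05). Beside the counts of every marker list stand 6.11% higher and 6.97% lower over all genes tested. In lists this short, 1 gene is near that share. Of the 8 sinusoidal endothelial markers 0 were higher and 3 lower, of 7 stellate markers 0 and 1, and of 5 cholangiocyte markers tested 0 and 0. The part of these differences in the values that follow was not tested, and in whole liver a change in cell numbers and a change in RNA per cell cannot be told apart.

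Of the 34 genes, 19 passed the filter on low counts, 11 Ugt and 8 Sult genes. The counts that follow describe these 19 unless another number is given. Adjusted over all 12468 genes tested, 0 of the 19 passed an adjusted p of 0.05 in edgeR's quasi-likelihood test, where 0.0722% of all genes tested did. At an unadjusted p of 0.05, 6 of the 19 were higher in DEHP livers and 0 were lower, against 6.11% of all genes tested for higher and 6.97% for lower (13.1% in either direction). These 6 were Sult1d1, Sult2a8, Ugt2b1, Sult1b1, Ugt2a3 and Ugt3a2. The log2 fold change of DEHP over control was above 0 for 15 of the 19, against 47.1% of all genes tested, and its median was 0.34, against -0.03 over all genes. In 6 of the 19 every DEHP library lay above every control library, where 9.17% of all genes tested did so, and in 0 of the 19 every DEHP library lay below, against 8.57%. DESeq2, run on all genes with any count, called 3 of 28 members, all higher, and 250 of 20576 genes in all (1.22%). The 20576 include genes that got no adjusted p, such as Sult1e1. With limma-voom 0 of the 19 members were called. Leaving out control replicate 3, edgeR called the same 3, Sult1d1 (adjusted p = 0.0119), Ugt2b1 (0.0163) and Sult2a8 (0.0355), among 400 genes in all (3.10% of those tested); without any other single library it called 0 members.

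**Figure D1:**
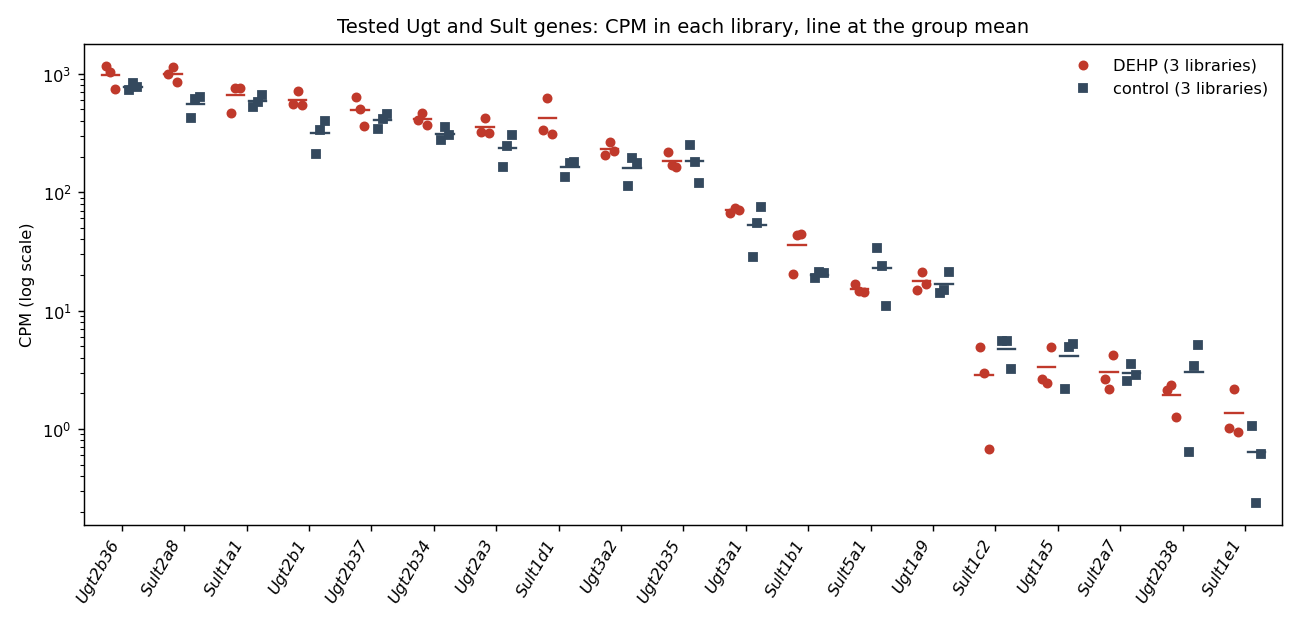
CPM on a log scale for the 19 tested Ugt and Sult genes, 3 DEHP libraries (circles, left) and 3 control libraries (squares, right) for each gene, with a line at each group mean. All 3 DEHP libraries lay above all 3 control libraries for Sult2a8, Ugt2b1, Ugt2b34, Ugt2a3, Sult1d1 and Ugt3a2.

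The 10 genes with a mean of at least 100 CPM over the groups all had a log2 fold change above 0, against 47.1% of all genes tested. Their values ran from 0.00050 (Ugt2b35), hardly above 0, to 1.37 (Sult1d1). At an unadjusted p under 0.05, 5 of them were higher, against 6.11% of all genes tested. Shares among all genes at that level were not computed. Of the 5 genes with a mean under 10 CPM, 2 had a value above 0 and 0 reached that p. Levels of different genes were compared per kilobase of the length the table gives. On that scale the highest group means in DEHP livers were Ugt2b36 (476 CPM per kb in DEHP livers, 376 in control livers), Sult1a1 (457 and 405) and Sult2a8 (411 and 229.6). Among tested members the lowest was Sult1e1, at 1.11 and 0.515 CPM per kb.

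The Ugt2b genes, which conjugate steroids, bile acids and many drugs, made up most of the glucuronosyltransferase signal. Their 6 members summed to 2981, 2889 and 2179 CPM in DEHP livers, against 1806, 2121 and 2053 CPM in control livers. DEHP livers averaged 2683 ± 439 CPM and control livers 1993 ± 166 CPM (SD, n = 3 each). Every DEHP sum lay above every control sum, by a narrow gap between DEHP replicate 3 and control replicate 2. The subfamily held 77.5% to 84.9% of the summed Ugt CPM in each library.

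Ugt2b1 was the member of this subfamily with the largest log2 fold change. Its rat counterpart glucuronidates morphine and bisphenol A. It had 553, 716 and 544 CPM in DEHP livers, against 211, 338 and 397 CPM in control livers. All 3 DEHP libraries were above the controls, of which control replicate 1 was the lowest. The log2 fold change was 0.94 ± 0.24 (SE, unadjusted p = 0.00146, adjusted p = 0.168). Ugt2b1 took 18.5%, 24.8% and 25.0% of the Ugt2b sum in DEHP libraries, against 11.7%, 15.9% and 19.3% in control libraries. Ugt2b36, the most abundant Ugt gene, had 1168, 1031 and 741 CPM in DEHP livers, against 725, 829 and 769.9 CPM in control livers. The groups overlapped, since DEHP replicate 3 lay within the range of the controls, and the log2 fold change was 0.34 ± 0.21 (SE, adjusted p = 0.511). Ugt2b37 showed the same order of the DEHP libraries, highest in replicate 1 and lowest in replicate 3, at 635, 502 and 362 CPM in DEHP livers, against 343, 417 and 455 CPM in control livers. Its log2 fold change was 0.30 ± 0.22 (SE, adjusted p = 0.605).

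Ugt2b34 lay just outside the threshold, with an unadjusted p of 0.0555 and no overlap between groups. It had 406, 468 and 367 CPM in DEHP livers, against 276, 356 and 306 CPM in control livers, and a log2 fold change of 0.40 ± 0.19 (SE, adjusted p = 0.393). Ugt2b35 averaged 183 ± 29.5 CPM in DEHP livers and 183 ± 65.7 CPM in control livers (SD, n = 3 each), with a log2 fold change of 0.00050 ± 0.25 (SE, adjusted p = 1.000). The spread of its controls, from 120 to 251 CPM, was wider than that of its DEHP libraries, from 163 to 217 CPM. Ugt2b38 had only 21, 27 and 15 counts in DEHP libraries and 9, 43 and 58 in control libraries, and its log2 fold change was -0.66 ± 0.64 (SE, adjusted p = 0.708). Its row spans chromosome 5 from 91625940 to 91991092 on the reverse strand. It contains the whole of Ugt2b37, from 91625951 to 91647602, and of Ugt2a3, from 91867314 to 91883396, on the same strand. Reads of these neighbours may therefore not be separated.

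Ugt2a3, whose human counterpart glucuronidates bile acids, stood at 323, 425 and 315 CPM in DEHP livers, against 164, 245 and 302 CPM in control livers. The groups did not overlap, but DEHP replicate 3 (315 CPM) and control replicate 3 (302 CPM) lay close together. The log2 fold change was 0.58 ± 0.23 (SE, unadjusted p = 0.0264, adjusted p = 0.334), and against control replicate 3 alone it was 0.25. Ugt2a2, the other Ugt2a member, had 0 counts in every library. Only 5.57% of the short windows of its GENCODE transcript occurred in no other gene. The protein-coding rows without a symbol described as Ugt2a enzymes overlap it on the same strand and also had 0 counts. Reads that match several rows may have been left out, so the 0 counts of Ugt2a2 may not mean absence.

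The Ugt3a proteins are known in humans to attach sugars other than glucuronic acid. Ugt3a2 had 208, 267 and 225 CPM in DEHP livers, against 113, 193 and 177 CPM in control livers. Control replicate 1 was the lowest of the 6 libraries and the DEHP values were above all controls, with a log2 fold change of 0.54 ± 0.22 (SE, unadjusted p = 0.0296, adjusted p = 0.343). Ugt3a1 had 66.6, 73.9 and 70.2 CPM in DEHP livers, against 28.4, 55.0 and 74.7 CPM in control livers. Its DEHP libraries lay close together inside the wider range of its controls, so the groups overlapped, and the log2 fold change was 0.42 ± 0.29 (SE, adjusted p = 0.579).

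The Ugt1a genes share their last exons and differ in their first, so that a single locus on chromosome 1 gives a family of enzymes for bilirubin, phenols and drugs. In the table the 5 members end at 92996654 or 92996661 on the forward strand, and their starts run from 92770204 to 92976604. In mouse GENCODE M21 transcripts, 36.9% to 42.5% of the 100-base windows of these 5 genes occurred in no other gene. How the authors counted reads that match several genes is not known from the labels, so the Ugt1a counts may leave out or split the shared part. Ugt1a9, which acts on phenols, was the most abundant, at 14.9, 21.1 and 16.9 CPM in DEHP livers, against 14.03, 14.9 and 21.2 CPM in control livers. The groups overlapped fully and the log2 fold change was 0.08 ± 0.24 (SE, adjusted p = 0.921). Ugt1a5 had 2.63, 2.44 and 4.93 CPM in DEHP livers, against 2.20, 4.90 and 5.23 CPM in control livers, with a log2 fold change of -0.29 ± 0.46 (SE, adjusted p = 0.833). Ugt1a2, Ugt1a8 and Ugt1a10 had at most 5 counts in a library and were not tested.

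The row described as UGT1A1, the bilirubin enzyme, has no symbol in the table, only the identifier MGP_C57BL6NJ_G0016678, and so is no member. It held 71.2, 61.8 and 91.2 CPM in DEHP livers, against 33.0, 58.2 and 58.9 CPM in control livers. All DEHP libraries were above all controls, and its log2 fold change was 0.58 ± 0.24 (SE, unadjusted p = 0.0308, adjusted p = 0.345). The Ugt1a members summed to 21.5 ± 2.98 CPM in DEHP livers and 21.1 ± 5.51 CPM in control livers. With the described rows of the locus added, the sums were 98.2 ± 14.1 CPM and 72.8 ± 20.3 CPM (SD, n = 3 each) and the log2 ratio was 0.43 in place of 0.02. Another row without a symbol, MGP_C57BL6NJ_G0030112, is described as mouse UDP-glucuronosyltransferase 2B17 and lies among the Ugt2b genes, inside the row of Ugt2b38. It held 55.7, 59.1 and 50.1 CPM in DEHP livers, against 31.0, 38.8 and 57.5 CPM in control livers, with a log2 fold change of 0.38 ± 0.23 (SE, adjusted p = 0.506).

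**Figure D2:**
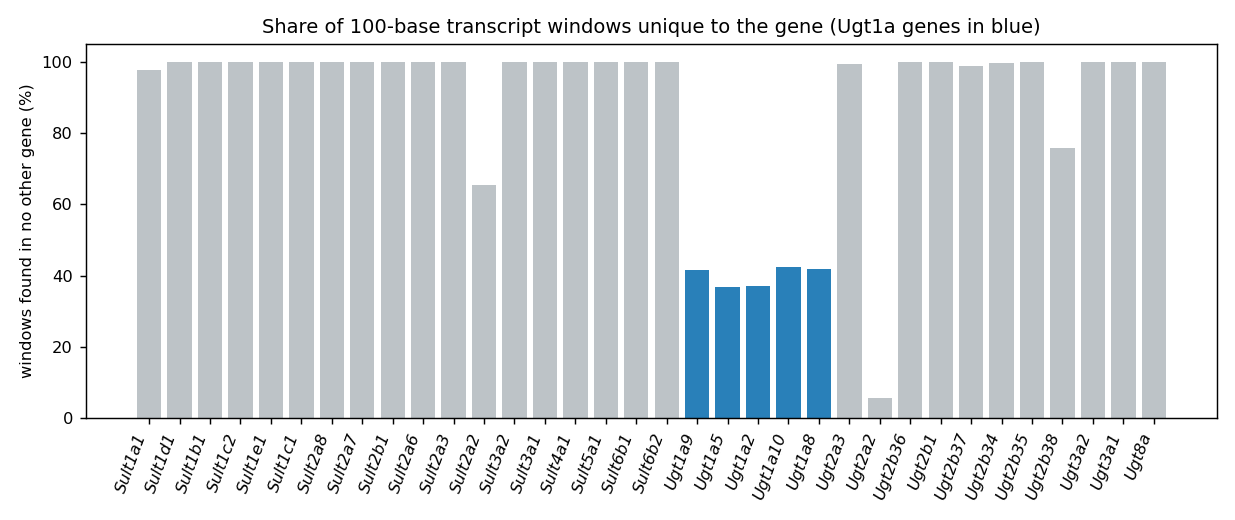
Percent of 100-base windows of the longest protein-coding GENCODE M21 transcript of each of the 34 genes that occur in the transcripts of no other gene, with Ugt1a genes in blue. The 5 Ugt1a genes lie between 36.9% and 42.5%, Ugt2a2 is at 5.57%, and 22 genes are at 100%.

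Among sulfotransferases Sult1a1, Sult1d1 and Sult2a8 held 94.6% to 97.5% of the summed Sult CPM in each library. The 6 Sult1 members summed to 829, 1423 and 1116 CPM in DEHP livers, against 680.4, 777 and 863 CPM in control livers. DEHP replicate 1 lay inside the range of the control sums.

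Sult1d1, which in mice sulfonates dopamine and other catechols, had both the largest log2 fold change and the smallest p of the 19 tested members. It had 337, 619 and 313 CPM in DEHP livers, against 133, 177 and 179 CPM in control livers. DEHP replicate 2 was the highest library, and the lowest DEHP library was still well above the highest control. Averages were 423 ± 170.3 CPM in DEHP livers and 163 ± 25.8 CPM in control livers (SD, n = 3 each), and the log2 fold change was 1.37 ± 0.26 (SE, unadjusted p = 1.54e-04, adjusted p = 0.120). It took 40.6%, 43.5% and 28.0% of the Sult1 sum in DEHP libraries, against 19.6%, 22.8% and 20.8% in control libraries. Leaving out DEHP replicate 2 brought its log2 fold change to 1.00, and leaving out DEHP replicate 3 to 1.55, the lowest and highest of the 6 such fits. Against control replicate 3 alone, the control without high Irf7, it was 1.25 (edgeR, adjusted p = 0.738), where the lone control is assumed to vary like the other libraries.

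Sult1a1, the main phenol sulfotransferase, had 466, 756 and 758 CPM in DEHP livers, against 522, 573 and 659 CPM in control livers. DEHP replicate 1 was the lowest of the 6 libraries and DEHP replicates 2 and 3 the highest, so the groups overlapped, with a log2 fold change of 0.17 ± 0.22 (SE, adjusted p = 0.779). Sult1b1, which sulfonates thyroid hormones and phenols, showed a similar division, at 20.3, 43.4 and 44.1 CPM in DEHP livers, against 18.7, 21.1 and 20.6 CPM in control livers. DEHP replicate 1 lay among the controls and the other DEHP libraries had higher levels than any control. The log2 fold change was 0.84 ± 0.27 (SE, unadjusted p = 0.00779, adjusted p = 0.242). Sult1e1, the oestrogen sulfotransferase, was near its limit of counting, with 10, 25 and 11 counts in DEHP libraries and 15, 3 and 7 in control libraries, and its log2 fold change of 1.08 ± 0.76 (SE, adjusted p = 0.582) had a wide error. Sult1c2 averaged 2.87 ± 2.14 CPM in DEHP livers and 4.75 ± 1.35 CPM in control livers (SD, n = 3 each), with a log2 fold change of -0.74 ± 0.56 (SE, adjusted p = 0.618). Sult1c1 had 0 counts.

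Sult2a8, which in mouse liver sulfonates bile acids at the 7-alpha position, held 99.4% to 99.8% of the Sult2 sum in each library. It had 989.6, 1133 and 859 CPM in DEHP livers, against 421, 611 and 632 CPM in control livers. It averaged 994 ± 137 CPM in DEHP livers and 555 ± 116 CPM in control livers (SD, n = 3 each), and no DEHP library overlapped a control. Its log2 fold change was 0.84 ± 0.21 (SE, unadjusted p = 0.00144, adjusted p = 0.168), with 0.68 once control replicate 1 was left out and 0.97 once control replicate 3 was, the lowest and highest of the 6 such fits. Sult2a7 had 26, 25 and 50 counts in DEHP libraries and 36, 45 and 32 in control libraries, with a log2 fold change of 0.02 ± 0.45 (SE, adjusted p = 0.990). Sult2b1, which sulfonates cholesterol, had at most 8 counts in a library, and Sult2a2, Sult2a3 and Sult2a6 had 0 in all 6 libraries. The 7 further rows described as Sult2 enzymes but without a symbol also had 0 counts in all. The Sult2a2 and Sult2a3 rows each overlap some of these rows on the same strand. The Sult2a6 row overlaps none of them. In GENCODE M21 transcripts, 65.4% of the 100-base windows of Sult2a2 occurred in no other gene, and 100% of those of Sult2a3 and Sult2a6. Reads that match several rows may have been left out. The 0 counts of Sult2a2, Sult2a3 and the rows that overlap them may therefore not mean absence.

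The remaining Sult genes were low or absent at this depth. Sult5a1 was the one among them that was tested, at 16.7, 14.6 and 14.4 CPM in DEHP livers, against 33.8, 23.9 and 10.9 CPM in control livers. Its controls ran from below to above the DEHP libraries, which lay close together, and the log2 fold change was -0.59 ± 0.34 (SE, adjusted p = 0.483). Against control replicate 3 alone its sign turned, to 0.49. Sult3a1, an amine sulfotransferase that is female-predominant in mouse liver, had 0, 0 and 3 counts in DEHP libraries and 0, 0 and 0 in control libraries. Sult3a2, Sult4a1, Sult6b1 and the ceramide galactosyltransferase gene Ugt8a had at most 10 counts in a library, and Sult6b2 had 0. A count of 0 allows up to 3 counts, or 0.213 to 0.304 CPM in these libraries, for counting error only. In all, 15 of the 34 genes were not tested, 9 of them with some counts and 6 with none.

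**Figure D3:**
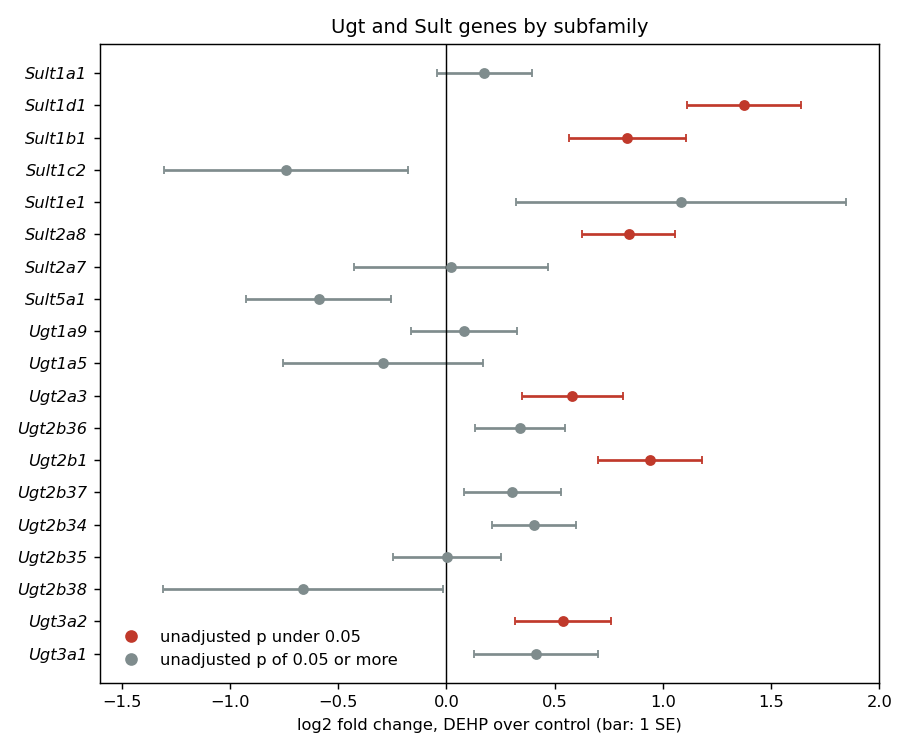
Log2 fold change of DEHP over control with 1 standard error for the 19 tested genes, listed by subfamily, with the 6 genes at an unadjusted p under 0.05 in red. Sult1d1 lies farthest right at 1.37, the error bars of Sult1c2 and Sult1e1 are among the widest, and 4 genes lie below 0.

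The members cluster in the genome. On chromosome 5, from 91368294 to 92168210 in the coordinates of the table's C57BL/6NJ annotation, lie 11 of the 34 genes, the Ugt2b and Ugt2a genes followed by Sult1b1, Sult1d1 and Sult1e1. Of the 10 tested there, 9 had a log2 fold change above 0 and 4 were higher at an unadjusted p under 0.05, where 47.1% of all genes tested were above 0 and 6.11% were higher at that p. Ugt2b1 spans chromosome 5 from 91392440 to 91402169 and Sult1d1 chromosome 5 from 92124427 to 92140356, both on the reverse strand and annotated as protein-coding. Sult2a8 lies on chromosome 7 from 12530359 to 12568595, also on the reverse strand, and Ugt3a2 on chromosome 15 from 6670329 to 6707174, on the forward strand.

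The windows before the start sites of the 3 members with the smallest p are shown as examples. They hold the 250 bases before the annotated start, 5′ to 3′ on the gene's strand, from RefSeq on build GRCm38.p6, which differs from the coordinates of the count table. Capitals mark AGGTCA, the half-site of many nuclear receptors, and TATAAA, the TATA box, each on either strand.
Sult1d1 (chr5:87569007-87569256, reverse strand): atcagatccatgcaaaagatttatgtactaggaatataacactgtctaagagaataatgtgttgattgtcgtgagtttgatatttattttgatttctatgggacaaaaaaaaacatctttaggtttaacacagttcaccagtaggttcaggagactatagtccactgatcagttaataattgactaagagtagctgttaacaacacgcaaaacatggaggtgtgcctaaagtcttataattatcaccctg
Sult2a8, first start (chr7:14446588-14446837, reverse strand): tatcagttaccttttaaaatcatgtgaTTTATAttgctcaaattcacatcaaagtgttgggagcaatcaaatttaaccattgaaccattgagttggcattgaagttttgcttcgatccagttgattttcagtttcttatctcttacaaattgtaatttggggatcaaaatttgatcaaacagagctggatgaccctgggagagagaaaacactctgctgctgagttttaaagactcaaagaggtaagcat
Sult2a8, second start (chr7:14438552-14438801, reverse strand): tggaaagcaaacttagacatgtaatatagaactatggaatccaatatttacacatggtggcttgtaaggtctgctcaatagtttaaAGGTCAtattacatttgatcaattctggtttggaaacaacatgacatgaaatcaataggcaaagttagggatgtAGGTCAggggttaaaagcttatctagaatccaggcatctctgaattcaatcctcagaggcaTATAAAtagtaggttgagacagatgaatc
Ugt2b1 (chr5:86926504-86926753, reverse strand): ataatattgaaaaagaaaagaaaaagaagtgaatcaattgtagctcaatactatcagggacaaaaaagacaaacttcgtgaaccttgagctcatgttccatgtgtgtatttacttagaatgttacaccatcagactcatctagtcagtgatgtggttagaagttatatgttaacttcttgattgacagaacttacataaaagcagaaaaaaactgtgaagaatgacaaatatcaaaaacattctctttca

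The second Sult2a8 window held AGGTCA at 164 and 90 bases and TATAAA at 29 bases before the start, the first held TATAAA on the other strand at 223 bases, and the Sult1d1 and Ugt2b1 windows held neither motif. Of the 34 genes 30 had an entry, with 33 windows in all. AGGTCA occurred in 24.2% of the member windows, against 14% of all 32851 windows of that length, and TATAAA in 24.2%, against 12.4%. Direct repeats of AGGTCA spaced by 1 base and by 4 bases are the arrangements known for PPAR and for CAR with RXR. They contain the half-site and matched 0 member windows, against 0.0335% and 0.0152% of all windows. Only exact repeats were searched, and at such shares 33 windows would hardly hold a match. The 0 therefore tells nothing about sites of these receptors. Member windows share ancestry within a cluster, and a match is a description of the sequence.

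The donors of both reactions are made by a few enzymes. The list of UDP-glucuronic acid supply and removal had 11 genes tested, of which 0 were higher and 0 lower (unadjusted p under 0.05, median log2 fold change 0.02). Over all genes tested, 6.11% were higher and 6.97% lower at that p. Ugp2, which makes UDP-glucose, had 376, 319.7 and 302 CPM in DEHP livers, against 216, 294 and 271 CPM in control livers, without overlap between groups and with a log2 fold change of 0.35 ± 0.20 (SE, adjusted p = 0.459). Ugdh, which oxidises UDP-glucose to UDP-glucuronic acid, averaged 146 ± 28.7 CPM in DEHP livers and 136 ± 46.1 CPM in control livers (SD, n = 3 each). Its log2 fold change was 0.10 ± 0.25 (SE, adjusted p = 0.902). Slc35d1, which carries UDP-glucuronic acid into the endoplasmic reticulum, lay at 0.02 ± 0.22 (SE, adjusted p = 0.982).

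For PAPS supply and sulfate handling, 10 genes were tested, with 2 higher and 1 lower by that threshold (median 0.06). Over all genes tested, 6.11% were higher and 6.97% lower. Papss2, which makes PAPS, had 152, 247 and 227 CPM in DEHP livers, against 104.5, 141 and 127 CPM in control livers. Each DEHP library was above each control, and the log2 fold change was 0.75 ± 0.22 (SE, unadjusted p = 0.00397, adjusted p = 0.200). Bpnt1, which removes the by-product of PAPS use, had a log2 fold change of 0.45 ± 0.19 (SE, unadjusted p = 0.0348, adjusted p = 0.356). The sulfate transporter gene Slc26a2, at 2.27 to 3.04 CPM in DEHP livers and 5.22 to 5.39 CPM in control livers, had one of -1.003 ± 0.37 (SE, unadjusted p = 0.0179, adjusted p = 0.303). Of 7 sulfatase genes tested, which remove sulfate, 0 were higher and 1 was lower. This was Arsg, a lysosomal sulfatase, at -0.75 ± 0.25 (SE, unadjusted p = 0.0108, adjusted p = 0.264).

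Exporters of conjugates had 8 genes tested, 3 higher and 0 lower by that threshold (median 0.44), against 6.11% and 6.97% of all genes. Abcc4, an exporter on the blood side of the hepatocyte, had 11.8, 6.63 and 7.31 CPM in DEHP livers, against 2.41, 1.501 and 2.84 CPM in control livers. The DEHP values lay above all controls at a low level, and the log2 fold change was 1.93 ± 0.40 (SE, unadjusted p = 2.34e-04, adjusted p = 0.128). Abcc3, also on the blood side, had 278, 272 and 355 CPM in DEHP livers, against 214, 148 and 217 CPM in control livers, with no overlap and a log2 fold change of 0.65 ± 0.21 (SE, unadjusted p = 0.00810, adjusted p = 0.244). Abcg2, on the bile side, had a log2 fold change of 0.51 ± 0.21 (SE, unadjusted p = 0.0263, adjusted p = 0.333). Abcc2, the main bile-side exporter of glucuronides, had 493, 387 and 358 CPM in DEHP livers, against 241, 291 and 388 CPM in control livers. Control replicate 3 lay among the DEHP libraries, and the log2 fold change was 0.43 ± 0.22 (SE, adjusted p = 0.427).

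Of 6 uptake carriers, 2 were higher and 2 lower (median -0.12), against 6.11% and 6.97% of all genes tested. Slco1b2, a carrier of bilirubin and conjugates into hepatocytes, had 634, 720.5 and 656 CPM in DEHP livers, against 385, 385 and 418 CPM in control livers. Neither group spread far, they did not overlap, and the log2 fold change was 0.76 ± 0.18 (SE, unadjusted p = 9.10e-04, adjusted p = 0.151). Slc10a1, the sodium-dependent bile acid carrier, had a log2 fold change of 0.60 ± 0.23 (SE, unadjusted p = 0.0225, adjusted p = 0.322). Slc22a7, an organic anion carrier, had 4.56, 13.5 and 10.02 CPM in DEHP livers, against 24.2, 19.4 and 26.0 CPM in control livers. All its DEHP libraries were below all controls, with a log2 fold change of -1.30 ± 0.33 (SE, unadjusted p = 0.00164, adjusted p = 0.169). Slco1a4, another anion carrier, had one of -0.61 ± 0.19 (SE, unadjusted p = 0.00686, adjusted p = 0.234).

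Among 18 regulators tested, 2 were higher and 0 lower (median 0.02). Nr1i3, which encodes CAR, a receptor that induces conjugation genes, had 126, 59.1 and 77.6 CPM in DEHP livers, against 47.1, 47.9 and 74.5 CPM in control livers. DEHP replicate 1 was far above the others and DEHP replicate 2 below control replicate 3, with a log2 fold change of 0.63 ± 0.28 (SE, unadjusted p = 0.0457, adjusted p = 0.375). Nr1i2, which encodes the related receptor PXR, averaged 118 ± 6.89 CPM in DEHP livers and 116 ± 20.5 CPM in control livers (SD, n = 3 each), with a log2 fold change of 0.02 ± 0.19 (SE, adjusted p = 0.972). Ghr, the growth hormone receptor, had a log2 fold change of 0.60 ± 0.23 (SE, unadjusted p = 0.0188, adjusted p = 0.307). Over the 6 lists, 60 genes were tested, 9 were higher and 4 lower, against 6.11% and 6.97% of all genes tested, and 0 passed the adjusted threshold (edgeR). The count of 4 lower is near the share over all genes.

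**Figure D4:**
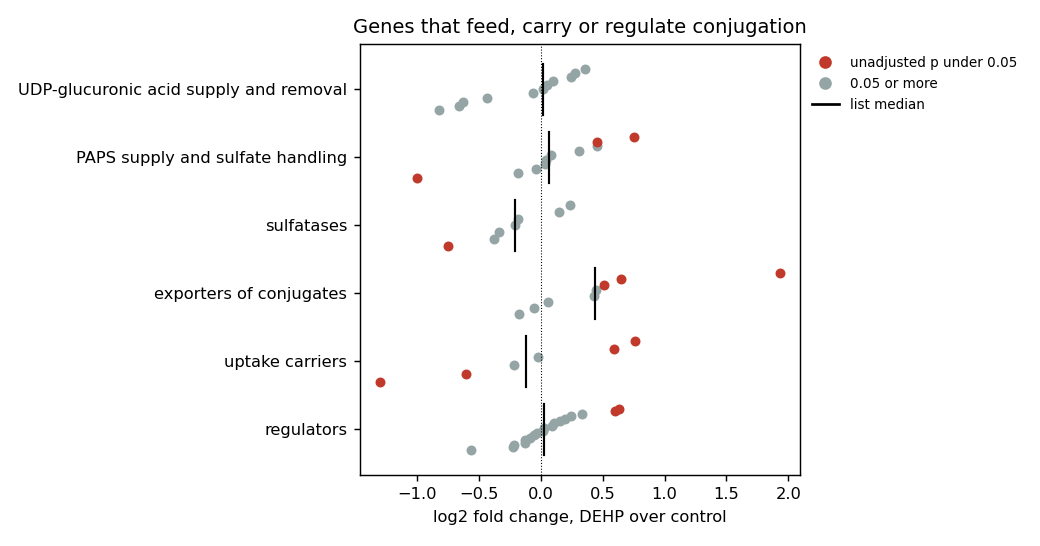
Log2 fold change of DEHP over control for the 60 tested genes that supply, carry or regulate conjugation, by list, with genes at an unadjusted p under 0.05 in red and a line at each list's median. The exporters have the highest median, 0.44, and the uptake carriers hold both higher and lower genes.

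Several conjugation genes differ by sex in mouse liver. Xist, the RNA of the inactive X chromosome, had 2, 3 and 0 counts in DEHP libraries and 5, 5 and 0 in control libraries. Of the female-biased liver genes listed 9 were tested, 4 higher and 0 lower in DEHP livers (unadjusted p under 0.05). Of 11 male-biased genes 2 were higher, Susd4 (log2 fold change 1.10, adjusted p = 0.128) and Cyp7b1 (1.09, adjusted p = 0.142). Lower were 2, Serpina12 (log2 fold change -2.30, adjusted p = 0.0193) and Cyp2u1 (-0.64, adjusted p = 0.294), and only Serpina12 passed the adjusted threshold (edgeR). Over all genes tested 6.11% were higher and 6.97% lower at that unadjusted p. The female-biased list holds the members Sult1e1 and Sult3a1, and the male-biased list Ugt2b38. The relation of these lists to the other members' values was not tested.

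The 6 genes at an unadjusted p under 0.05 were picked from these same libraries, so a kept sign is no independent check. Where groups do not overlap, leaving out 1 library can hardly turn it. The log2 fold change of all 6 stayed above 0 whichever library was left out. The range was 0.72 to 1.16 for Ugt2b1, 0.38 to 0.82 for Ugt2a3, 0.34 to 0.69 for Ugt3a2 and 0.66 to 1.14 for Sult1b1. For Ugt2b1, Ugt2a3 and Ugt3a2 the lowest value came without control replicate 1. Against control replicate 3 alone the log2 fold change was 0.62 for Ugt2b1, 0.67 for Sult2a8, 0.82 for Sult1b1 and 0.41 for Ugt3a2, and 4 members were higher and 1 lower at an unadjusted p under 0.05, which 4.78% of all genes tested passed in either direction in that fit.

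**Figure D5:**
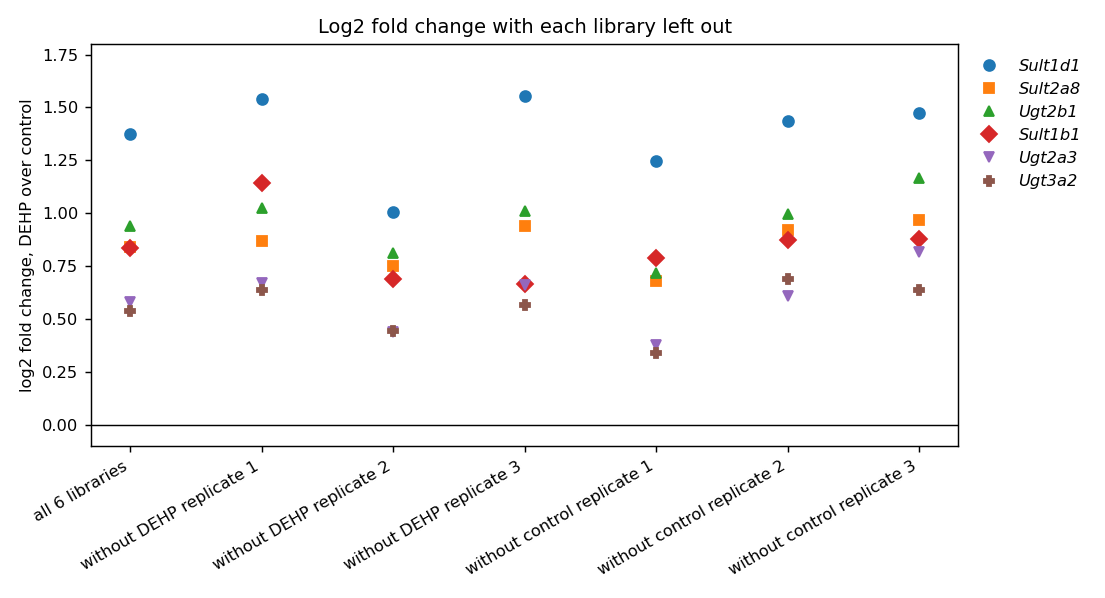
Log2 fold change of DEHP over control for the 6 genes at an unadjusted p under 0.05, with all 6 libraries and with each library left out in turn. The genes were picked by p from the same libraries, so points above 0 are no independent check. Every point is above 0, and Sult1d1 moves most, between 1.00 and 1.55.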

How the data were processed

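Polyadenylated RNA of 6 mouse liver samples was made into libraries with a strand-marking kit and sequenced as paired ends, per the labels' protocols. The authors deposited 1 table of whole-number read counts per gene, with no normalization. The submitters' processing notes name the build GRCm38.p6, while gene identifiers in the file are of the C57BL/6NJ annotation. Aligner, counting program, use of strand and treatment of multi-mapped reads are not stated in the labels. Gene lengths, symbols, biotypes, descriptions and coordinates are those of the deposited table, except where RefSeq or GENCODE is named. Of the counts, 2.73% to 4.28% lay in loci whose name field holds only a dash, which stayed out of library sizes and tests. Rows whose name field repeats their identifier, called rows without a symbol, were kept.

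The test was edgeR's (version 4.0.16, R 4.3.3), after filterByExpr at a minimum count of 10 (TMM scaling, robust quasi-likelihood test, two-sided, no covariate, Benjamini-Hochberg over 12468 genes, threshold 0.05). Standard errors were derived from the F statistic. The common biological coefficient of variation was 27.8%. Alternatives were RLE scaling, no filter, a filter at a mean of 1 CPM, DESeq2 1.42.0, limma-voom 3.58.1, a fit without robust estimation, a block on replicate number and each library left out. Within groups, chi-square over degrees of freedom between library pairs was 28.4 or more, so no library repeated the counts of another in its group. This cannot tell whether libraries were prepared from the same animal, and pairs across groups were not compared.

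Members and gene lists were chosen with earlier results of these data known. Named in full were members with an unadjusted p under 0.05, the most abundant tested member of each subfamily, a few well-known enzymes, and the listed pathway genes under the same p. Ugt2b34, Ugt2b35, Ugt2b37, Ugt2b38, Ugt3a1, Ugt1a5, Sult1c2, Sult2a7, Irf7, Serpina12, Susd4, Cyp7b1, Cyp2u1 and the rows without a symbol were added after their values were seen. Window uniqueness was computed from GENCODE M21 transcripts on the same strand. Promoter windows are from RefSeq.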

Additional observations from a re-analysis of the deposited data

How the results depend on the processing

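The count of 9 genes past the adjusted threshold over all genes became 496 with no filter and 250 with DESeq2, and 5 to 400 with 1 library left out, where 400 came without control replicate 3. It was 0 without control replicates 1 and 2 (chosen after seeing the data). Members past it, 0 of 19 with all libraries, were 4 of 28 with no filter (Sult1d1, Ugt2b1, Sult2a8 and Sult1b1), where 2.41% of 20576 genes passed. They were 3 of 28 with DESeq2, where 1.22% of 20576 genes passed, and 0 to 3 of 19 with 1 library left out. The cause was not tested. Members higher at an unadjusted p of 0.05, 6 in the reported test, were 4 to 8 across all alternatives. Members lower, 0 in the reported test, were 1 with no filter and 1 without control replicates 1 and 2, and 0 to 1 with 1 library left out. Of the pathway genes, 9 higher became 4 without control replicates 1 and 2 and 4 to 12 with 1 library left out, and 4 lower became 3 to 7.

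The log2 ratio of subfamily sums kept its sign with RLE scaling and with each library left out, except Ugt1a. These ran from 0.33 to 0.72 for Sult1, 0.67 to 0.94 for Sult2, -0.92 to -0.19 for Sult5, -0.13 to 0.25 for Ugt1a, 0.37 to 0.79 for Ugt2a, 0.35 to 0.56 for Ugt2b and 0.28 to 0.64 for Ugt3a. With rows identified by description added, chosen after the data were seen, Ugt1a was 0.43 in place of 0.02. There were 0 rows of other biotypes with such a symbol.

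The sign turned for Slc35d1, Ugdh, Ugt1a9 and Nr1i2, with values near 0, and for Sult5a1, at -0.59 with all libraries. Slc35d1 was -0.012 with limma-voom and -0.012 with the replicate block. With 1 library left out, it ran from -0.23 to 0.17, Ugdh from -0.078 to 0.40, Ugt1a9 from -0.057 to 0.31 and Nr1i2 from -0.091 to 0.18. Without control replicates 1 and 2, Sult5a1 was 0.49, Ugt1a9 -0.25 and Nr1i2 -0.21. Libraries that share a replicate number did not deviate together (correlations -0.02, 0.06 and -0.03), and the replicate block changed no call of a member, with 7 members higher at an unadjusted p of 0.05 and 6 genes past the adjusted threshold. The 15 members not tested had at most 10 counts in a library, and whether they are expressed below that was not tested.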
